A study of Mus musculus with 9 samples.

Results

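The genes described here are 10 costimulation genes of CD8+ T cells, taken by name from the TNF receptor family, the CD28 family and the TNF ligand family: Cd27, Tnfrsf4, Tnfrsf9, Tnfrsf18, Tnfrsf1b, Cd28, Icos, Ltb, Lta and Tnf. All 10 were measured, among 17097 genes in all, by 16 probe sets that each name a single gene. Each gene is represented by its probe set with the highest mean over the 9 arrays. RNA was measured on 1 expression array per sample in T cells that were sorted from the spleen as OVA+ CD8+ cells, specific for the model antigen OVA, at day 9 of an infection with Listeria monocytogenes. The 4 WT samples came from Tsc1-fl/fl mice without cre, and the 5 Tsc1-/- samples from Tsc1-fl/fl mice positive for Granzyme B-cre, all on the C57BL/6 background and all infected. The mice of both groups carried the floxed alleles, and the cre transgene was present in the Tsc1-/- group alone, so an effect of cre cannot be told apart from one of Tsc1 loss. Cre under the granzyme B promoter acts in cells that switch on that promoter, as activated cytotoxic cells do, while other cells of these mice retain Tsc1. The labels used here name neither ages nor whether every sample is from its own mouse, so a p-value below reflects only how these 9 samples vary.

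Costimulatory receptors give an activated T cell its second signal beside that of the T cell receptor. CD28 and ICOS signal through phosphoinositide 3-kinase, whereas CD27, OX40 (Tnfrsf4), 4-1BB (Tnfrsf9), GITR (Tnfrsf18) and TNFR2 (Tnfrsf1b) recruit TRAF adaptors and lead to NF-kB and cell survival. TNF and the lymphotoxins are ligands of the same superfamily that T cells make themselves. In CD8+ T cells responding to infection, CD27 is kept by cells that can form memory and is lost from many terminal effectors, and TNF is an effector cytokine. TSC1, with its partner TSC2, holds back the kinase mTORC1, which CD28 and other costimulatory signals activate.

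The arrays carried the markers of the sorted cells at like levels. The mean level of 9 CD8 T cell markers, such as Cd3e and Cd8a, was 11.24 to 11.33 in WT and 11.25 to 11.32 in Tsc1-/- on the log2 scale, against array medians of 5.97 to 6.05. The targeted gene Tsc1 read 7.56 to 7.77 on the WT arrays and 7.27 to 7.51 on the Tsc1-/- arrays, a level of 83.3% of that in WT (95% interval 73.9 to 93.9%, adjusted p = 0.114, limma). Of its other probe sets, 1 differed by -0.32 and 1 by -0.01; whether any probe set covers a deleted exon is not known here, and the check of the labels is partial. All levels below are log2 values, and every difference is Tsc1-/- minus WT on the log2 scale with limma's moderated standard error (SE). The median level over all genes was 6.34. Tnfrsf4 and Lta had means over the 9 arrays below it, and Tnf read 6.43 to 6.64 in WT, just above it. Levels of different genes come from different probes and are not compared with each other.

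Of the 10 costimulation genes, 0 passed the threshold, an adjusted p under 0.05 over all 17097 genes (limma), where 1.28% of all genes passed (0.971% as higher and 0.310% as lower). At an unadjusted p under 0.05 the count was 2 of 10, Cd27 and Tnf, against 17.2% of all genes. These 2 were also the members whose genotypes did not overlap, against 7.96% of all genes (5.08% as higher and 2.88% as lower). Cd27 was lower in every Tsc1-/- array than in every WT array and Tnf was higher in every Tsc1-/- array than in every WT array. The differences of 8 members were below 0 and those of Tnf and Tnfrsf9 above it. The median over the 10 genes was -0.13, against -0.01 over all genes, where 51.8% of differences were below 0.

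**Figure D1:**
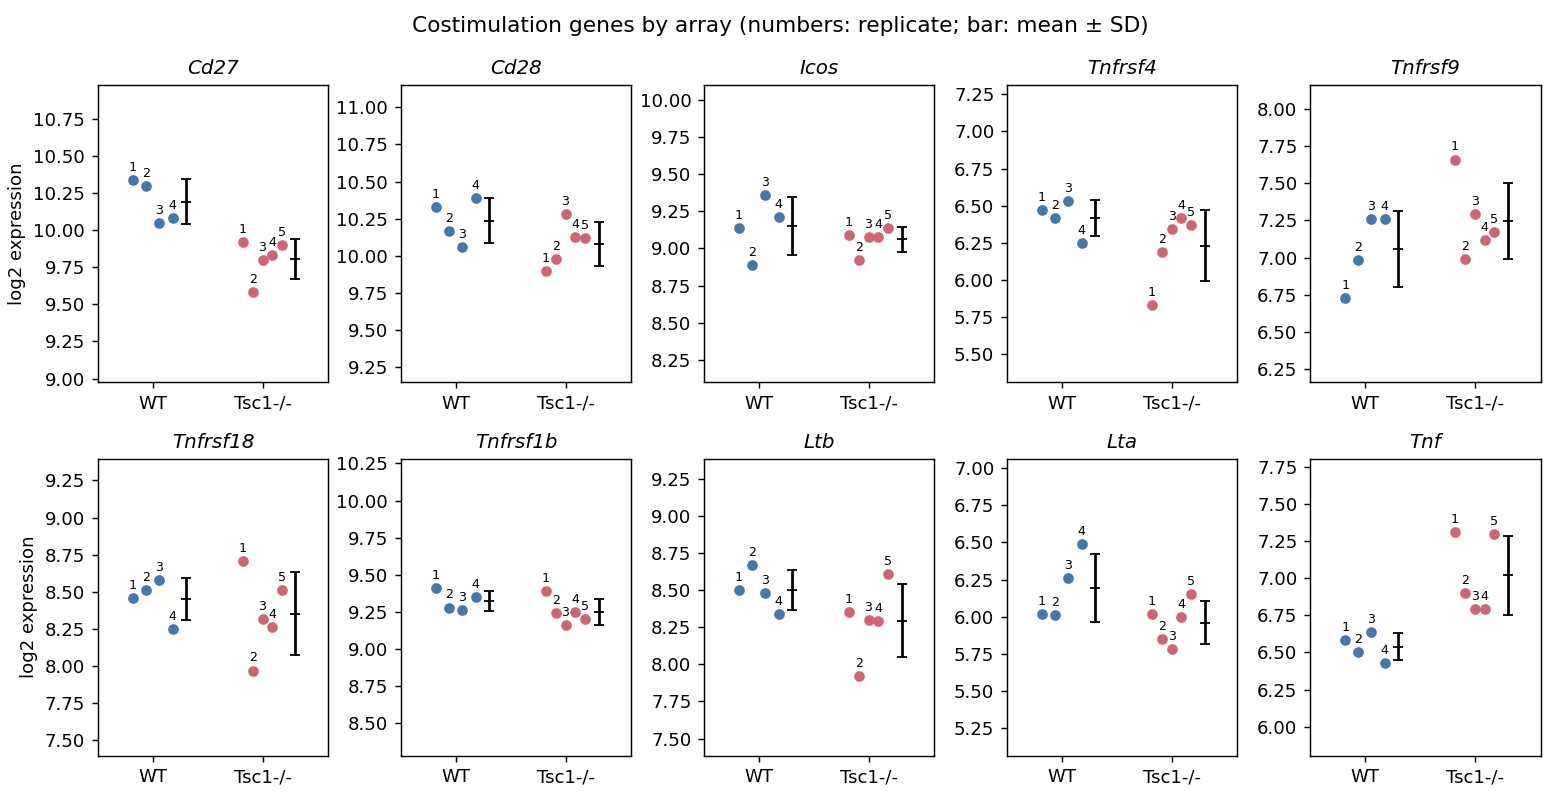
Level of each costimulation gene (log2 expression, y axis, each panel spanning the same range around its gene's mean) on each of the 4 WT and 5 Tsc1-/- arrays, with the replicate number above each point and the mean ± SD beside the points. In the panels of Cd27 and Tnf the genotypes do not overlap, and in the other 8 panels they do.

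Cd27 encodes a receptor of the TNF receptor family that binds CD70 and sustains the survival of responding T cells. Its level was 10.34, 10.30, 10.05 and 10.08 in WT replicates 1 to 4 and 9.92, 9.58, 9.80, 9.83 and 9.90 in Tsc1-/- replicates 1 to 5. WT replicates 1 and 2 were the highest, WT replicates 3 and 4 lay nearer to the Tsc1-/- arrays, and Tsc1-/- replicate 2 was the lowest. The difference was -0.39 (SE 0.10, 95% interval -0.60 to -0.18), which is 76.4% of the WT level (95% interval 66.2 to 88.3%). Its adjusted p was 0.0666 (limma) and the exact two-sided permutation p was 0.00794, the smallest this design can give.

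Tnfrsf9 encodes 4-1BB, a receptor induced by activation that favours survival of CD8+ T cells. It read 6.73, 6.98, 7.26 and 7.26 in WT and 7.66, 6.99, 7.29, 7.12 and 7.17 in Tsc1-/- by its brightest probe set. Tsc1-/- replicate 1 was the highest array and WT replicate 1 the lowest, and 3 of the 5 Tsc1-/- arrays lay inside the WT range. The difference was 0.19 (SE 0.14, 95% interval -0.13 to 0.50, adjusted p = 0.551, limma). It was 0.08 without WT replicate 1 and likewise 0.08 without Tsc1-/- replicate 1. With the macrophage, B cell or mitosis level of each array as a covariate it was 0.07, 0.09 or -0.32. The 3 probe sets of Tnfrsf9 did not give a like answer. The next brightest read 5.94, 6.45, 6.39 and 6.23 in WT and 7.29, 6.32, 6.40, 6.80 and 6.54 in Tsc1-/-, a difference of 0.42 (SE 0.18, adjusted p = 0.310 over all probe sets, limma). The dimmest differed by -0.03 (95% interval -0.24 to 0.17). Tsc1-/- replicate 1 was the highest array at the 2 brighter probe sets but not at the dimmest, where it read 5.92 and Tsc1-/- replicate 2 read 6.16.

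OX40, encoded by Tnfrsf4, is best known for prolonging CD4+ T cell responses and also acts on CD8+ T cells. Its level was 6.47, 6.42, 6.53 and 6.25 in WT and 5.83, 6.19, 6.34, 6.42 and 6.37 in Tsc1-/-. Tsc1-/- replicate 1 stood lowest, and 3 of the 5 Tsc1-/- arrays lay inside the WT range. The difference of -0.19 (SE 0.12, 95% interval -0.45 to 0.07) did not pass (adjusted p = 0.447, limma). Without Tsc1-/- replicate 1 it was -0.09, and with the mitosis level of each array as a covariate it was 0.01.

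Tnfrsf18, which encodes GITR and lies next to Tnfrsf4 on chromosome 4 in the RefSeq annotation, read 8.46, 8.51, 8.58 and 8.25 in WT. In Tsc1-/- it read 8.71, 7.97, 8.32, 8.26 and 8.51, so that Tsc1-/- replicate 1 was above and replicate 2 below every WT array. The SD was 0.28 in Tsc1-/- (n = 5) and 0.14 in WT (n = 4), and the difference was -0.10 (SE 0.13, 95% interval -0.38 to 0.19, adjusted p = 0.763, limma). It was -0.00061 without Tsc1-/- replicate 2, -0.18 without Tsc1-/- replicate 1, -0.05 without WT replicate 3 and -0.16 without WT replicate 4. In Tsc1-/- replicate 1, therefore, these neighbouring genes stood at opposite ends of their group.

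TNFR2, encoded by Tnfrsf1b, is the TNF receptor without a death domain and is carried by activated T cells. Its values were close together, from 9.26 to 9.41 in WT (values 9.41, 9.28, 9.26 and 9.35) and from 9.16 to 9.39 in Tsc1-/- (values 9.39, 9.24, 9.16, 9.25 and 9.20). Although 4 of the 5 Tsc1-/- arrays lay below every WT array, the difference was small, at -0.07 (SE 0.08, 95% interval -0.24 to 0.09, adjusted p = 0.663, limma). It was -0.05 without WT replicate 1, -0.12 after quantile normalization and -0.03 after median centring. Its other probe set differed by -0.14 (95% interval -0.35 to 0.06).

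Both activating receptors of the CD28 family overlapped between the genotypes. Cd28, whose product binds CD80 and CD86 on antigen-presenting cells, read 10.33, 10.17, 10.06 and 10.39 in WT and 9.90, 9.98, 10.28, 10.13 and 10.12 in Tsc1-/-. Tsc1-/- replicates 1 and 2 lay below the WT range and the other 3 inside it. The difference was -0.15 (SE 0.10, 95% interval -0.37 to 0.06, adjusted p = 0.460, limma), and the other Cd28 probe set differed by -0.10. With the macrophage, B cell or mitosis level as a covariate the difference was -0.34, -0.29 or -0.06.

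Icos, which encodes the inducible costimulator, read 9.14, 8.89, 9.36 and 9.21 in WT and 9.09, 8.92, 9.08, 9.08 and 9.14 in Tsc1-/-. All 5 Tsc1-/- arrays lay inside the WT range. The difference was -0.09 (SE 0.10, 95% interval -0.30 to 0.12, adjusted p = 0.691, limma), and its other probe sets differed by -0.09 and 0.05. It was -0.02 without WT replicate 3, -0.17 without WT replicate 2 and -0.05 without Tsc1-/- replicate 2. With the macrophage, B cell or mitosis level as a covariate it was -0.21, -0.23 or -0.35. For Cd28 and Icos the intervals leave room for a level between 77.4 and 104% and between 81.3 and 109% of that in WT.

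**Figure D2:**
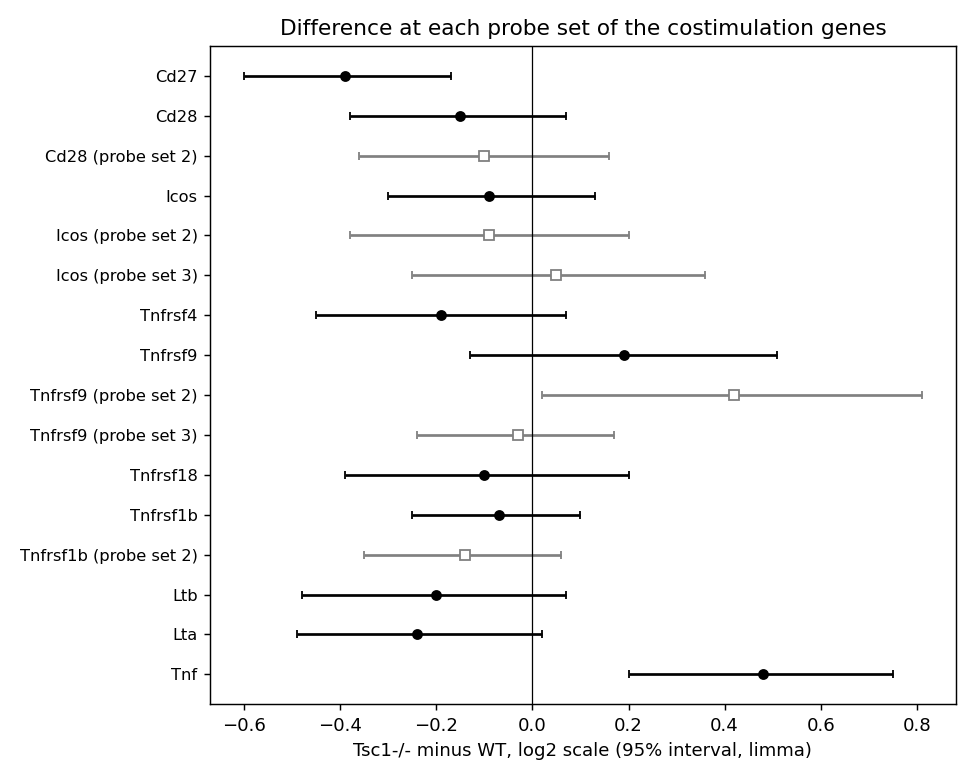
Difference between Tsc1-/- and WT (x axis, log2 scale) at each of the 16 probe sets of the costimulation genes, with 95% intervals from limma over all probe sets. Filled circles are the brightest probe set of a gene and open squares the others. The intervals of Cd27, Tnf and the second probe set of Tnfrsf9 leave out 0.

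The ligand genes Ltb, Tnf and Lta lie side by side on chromosome 17, with Tnf between the lymphotoxin genes and no other protein-coding gene between them in the RefSeq annotation. Their differences were not of the same sign: that of Tnf was positive and those of both lymphotoxin genes negative, none past the threshold. Tnf, a cytokine that effector CD8+ T cells make quickly on contact with antigen, read 6.58, 6.50, 6.64 and 6.43 in WT and 7.31, 6.90, 6.79, 6.79 and 7.30 in Tsc1-/-. Tsc1-/- replicates 1 and 5 stood above the other 3, and the lowest Tsc1-/- array still lay above the highest WT array. The difference was 0.48 (SE 0.12, 95% interval 0.21 to 0.75), or 139% of the WT level (95% interval 116 to 168%), with an adjusted p of 0.0748 (limma) and an exact two-sided permutation p of 0.0238. The SD was 0.09 in WT (n = 4) and 0.27 in Tsc1-/- (n = 5).

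Lta encodes lymphotoxin alpha, which is secreted as a homotrimer or held at the cell surface by lymphotoxin beta. It read 6.02, 6.01, 6.26 and 6.49 in WT and 6.02, 5.85, 5.78, 6.00 and 6.15 in Tsc1-/-. WT replicates 3 and 4 stood above all other arrays, while WT replicates 1 and 2 lay within the Tsc1-/- range. The difference of -0.24 (SE 0.11, 95% interval -0.49 to 0.01) did not pass (adjusted p = 0.310, limma; exact permutation p = 0.0952). Without WT replicate 4 it was -0.14 (adjusted p = 0.536, limma). With the macrophage, B cell or mitosis level as a covariate it was -0.55, -0.49 or -0.69, with adjusted p of 0.326, 0.275 and 0.621 (limma). The 95% intervals were -0.86 to -0.24, -0.75 to -0.22 and -1.02 to -0.35, and all leave out 0. In these 3 settings limma called 0 of all genes.

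Ltb, the membrane anchor of the lymphotoxin heterotrimer, read 8.50, 8.67, 8.48 and 8.34 in WT and 8.35, 7.92, 8.30, 8.29 and 8.61 in Tsc1-/-. Tsc1-/- replicate 2 was the lowest array, and replicates 1 and 5 lay inside the WT range. The difference was -0.20 (SE 0.12, 95% interval -0.47 to 0.06, adjusted p = 0.424, limma). Without Tsc1-/- replicate 2 it was -0.11, and with the mitosis level as a covariate -0.09.

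The bases upstream of Tnf and Ltb are shown because the differences of these neighbours had opposite signs, though neither passed the threshold. RefSeq promoter sequences (GRCm38.p6) matched 8 of the 10 members, all but Cd28 and Icos. The stretches run 5′ to 3′ on the gene's strand and end at the base before the annotated gene, at chr17:35202008-35202257 (minus strand) for Tnf and chr17:35194257-35194506 (plus strand) for Ltb. Capitals mark matches, on either strand, to the NF-kB consensus, to the letters GGAAAA (an NFAT core), to TATAAA, the core of a TATA box, or to TGAGTCA (an AP-1 site), and no matches overlap.
Tnf: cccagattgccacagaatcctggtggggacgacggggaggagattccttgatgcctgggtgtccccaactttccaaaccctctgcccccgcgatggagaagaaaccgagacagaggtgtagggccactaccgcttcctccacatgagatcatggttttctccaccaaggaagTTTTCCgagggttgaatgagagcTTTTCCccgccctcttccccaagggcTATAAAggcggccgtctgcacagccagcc
Ltb: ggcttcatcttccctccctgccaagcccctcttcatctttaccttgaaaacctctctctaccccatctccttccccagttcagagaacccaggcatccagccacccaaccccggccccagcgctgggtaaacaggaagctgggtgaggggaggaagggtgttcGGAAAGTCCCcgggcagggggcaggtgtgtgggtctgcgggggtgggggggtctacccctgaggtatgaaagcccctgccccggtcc

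In the 250 bases before Tnf there were 2 matches to the NFAT letters and 1 to the TATA letters, which lies closest to the gene. The same length before Ltb held 1 match to the NF-kB consensus and none to the other letters. Over all 32851 promoter sequences of the table, 7.25% held the NF-kB consensus within 250 bases, 20.4% the NFAT letters, 12.4% the TATA letters and 4.46% the AP-1 letters. A match describes the letters in the window and does not show binding.

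The members did not follow a common order across the arrays. In the Tsc1-/- group, replicate 1 was the highest array for 5 members (Cd27, Tnfrsf9, Tnfrsf18, Tnfrsf1b and Tnf) and the lowest for Cd28 and Tnfrsf4. Replicate 2 was the lowest for 5 members (Cd27, Icos, Tnfrsf9, Tnfrsf18 and Ltb) and the highest for none. In WT, replicate 4 was the highest for Cd28, Tnfrsf9 and Lta and the lowest for Tnfrsf4, Tnfrsf18, Ltb and Tnf. The SD of a member ranged from 0.07 to 0.26 in WT and from 0.08 to 0.28 in Tsc1-/-, and it was larger in Tsc1-/- for 6 of the 10. Over all genes it was larger in Tsc1-/- for 52.2%.

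The genes whose profile over the 9 arrays was closest to that of Cd27 were Traf1, Lpar6 and Cxcr3, among 8222 genes at or above the median level. Likeness was measured as the root mean square difference between profiles centred on their own means, which was 0.0567 for Traf1, 0.0885 for Lpar6 and 0.0890 for Cxcr3, where Cd27 itself lay 0.229 from its own mean. Traf1, an adaptor bound by several of these receptors, differed by -0.36, Lpar6, a lysophosphatidic acid receptor, by -0.39, and the chemokine receptor Cxcr3 by -0.29. Of these, Lpar6 fell past the threshold (adjusted p = 0.0359, limma). Closest to Tnf were E2f1, a transcription factor of the cell cycle (0.0627), Nipa2, a magnesium transporter (0.0791), and Cdkn2c, an inhibitor of cyclin-dependent kinases (0.114), where Tnf lay 0.301 from its own mean. Their differences between the genotypes were 0.41, 0.40 and 0.55, and that of Cdkn2c passed (adjusted p = 0.0339, limma). Since the likeness includes the difference between the genotypes, these genes were bound to differ in the same direction.

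The surroundings of these receptors were covered by 8 lists with 92 genes, of which 80 were measured. None of the 80 passed the threshold (limma), 17 of 80 had an unadjusted p under 0.05 (21.2%, against 17.2% of all genes), and the differences were positive for 40 and negative for 40. The genotypes did not overlap for 8 of the 80, a share near the 7.96% of all genes (5.08% as higher and 2.88% as lower). Of these 8, Fas, Traf6 and Khsrp were higher, and Ltbr, Btla, Pik3ca, Prkcq and Zfp36l1 were lower.

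Among 6 ligands of the costimulatory receptors, 5 differences were positive and 1 negative. Tnfsf9, the ligand of 4-1BB, differed by 0.32 (SE 0.09, adjusted p = 0.108, limma), with 4 of 5 Tsc1-/- arrays above every WT array. Cd86, a ligand of CD28 made by antigen-presenting cells, differed by -0.19 (adjusted p = 0.542, limma). Of 8 other TNF family ligands, 4 were positive and 4 negative, led by Tnfsf11, which encodes RANKL (0.31, adjusted p = 0.243, limma), and Tnfsf14, which encodes LIGHT (-0.20, adjusted p = 0.281, limma).

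Of 13 other TNF receptor family members, 3 differences were positive and 10 negative. Fas, the death receptor, differed by 0.41 (SE 0.10, adjusted p = 0.0605, limma), the smallest adjusted p of the 80 genes. Ltbr, the receptor of the lymphotoxin heterotrimer, mainly on stromal and myeloid cells, differed by -0.30 (SE 0.09, adjusted p = 0.116, limma). The 3 inhibitory members of the CD28 family all had negative differences: Btla by -0.50 (SE 0.12, adjusted p = 0.0647, limma), Pdcd1, which encodes PD-1, by -0.15 (95% interval -0.70 to 0.39), and Ctla4 by -0.03 (95% interval -0.52 to 0.46). Ctla4 lies between Cd28 and Icos on chromosome 1, and in Tsc1-/- replicate 1 it read 9.73, above every other array, where Cd28 was at its lowest.

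Downstream of the TNF receptor family, 7 of 15 TRAF adaptors and partners had positive differences and 8 negative ones. Traf1 differed by -0.36 (SE 0.11, adjusted p = 0.118, limma) and Traf6 by 0.34 (SE 0.11, adjusted p = 0.149, limma). Of 10 NF-kB subunits and inhibitors, 8 were positive, with a median of 0.12. The inhibitor genes Nfkbib (0.25, adjusted p = 0.159, limma) and Nfkbia (0.30, adjusted p = 0.293, limma) had the smallest p of this list. In CD28 and ICOS signalling, 8 of 13 were positive, among them the kinase gene Akt1 (0.29, adjusted p = 0.114, limma), and Pik3ca, a catalytic subunit of phosphoinositide 3-kinase, differed by -0.21 (adjusted p = 0.180, limma).

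The list of TNF shedding and mRNA control had 5 positive and 7 negative differences of 12. Zfp36l1, of a family whose proteins bind AU-rich elements such as that of the Tnf mRNA and promote decay, differed by -0.41 (SE 0.12, adjusted p = 0.099, limma). Khsrp, an RNA-binding protein that promotes decay of AU-rich mRNAs, differed by 0.26 (SE 0.08, adjusted p = 0.104, limma). Adam17, the protease that releases TNF from the cell surface, differed by 0.17 (95% interval -0.06 to 0.40).

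**Figure D3:**
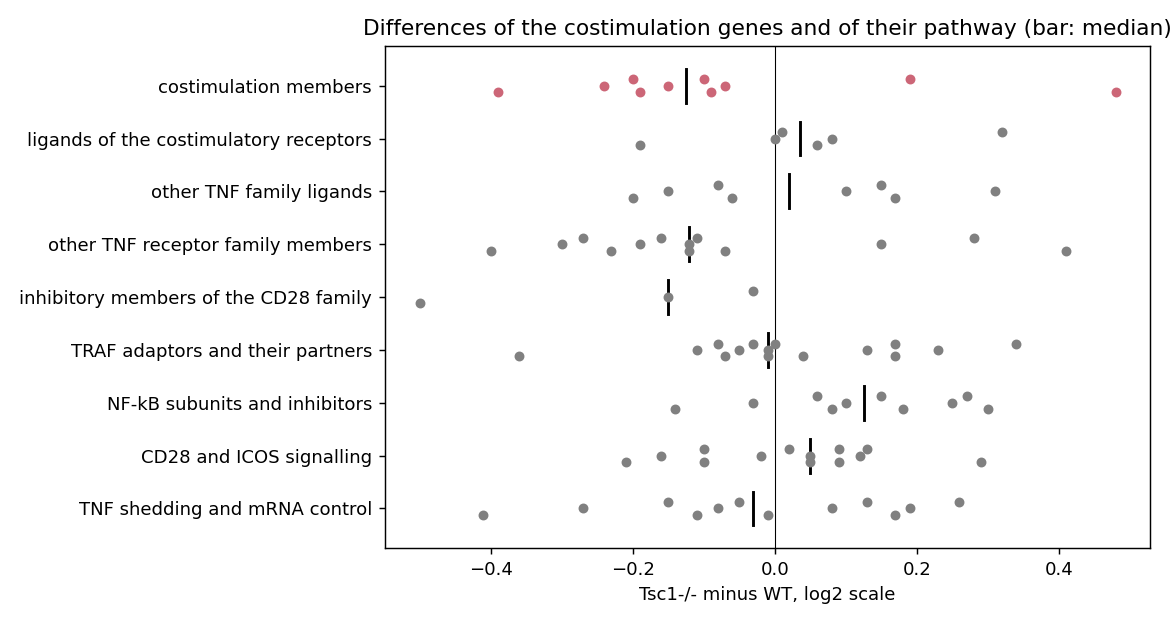
Difference between Tsc1-/- and WT (x axis, log2 scale) of each costimulation gene (red) and of the genes of 8 lists around them (grey), with the median of each list as a bar. The costimulation genes range from -0.39 (Cd27) to 0.48 (Tnf), and positive and negative differences occur in every list except the 3 inhibitory CD28 family members.

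Markers of other spleen cells differed between the groups beside these results. All 12 macrophage and monocyte markers were lower in Tsc1-/-, of which Spic fell past the threshold, and their mean level was 6.51 to 7.25 in WT and 6.27 to 6.67 in Tsc1-/-. Of 7 B cell markers 6 were lower, with mean levels of 5.79 to 6.39 and 5.49 to 6.02. Of 7 dendritic cell markers 7 were lower, with 8.10 to 8.75 and 7.72 to 8.48. Macrophages make Tnf, and B cells express Ltb, and in sorted bulk cells fewer cells of a type and less RNA per cell cannot be told apart. Tnf was higher and Cd27 lower in the group where the macrophage markers were lower. The part of other cells in these differences was not tested. With the macrophage level of each array as a covariate the differences were 0.56 (SE 0.20) for Tnf and -0.36 (SE 0.16) for Cd27, and with the B cell level they were 0.45 (SE 0.18) and -0.39 (SE 0.14). The mean level of 6 CD4 and regulatory T cell markers was 6.03 to 6.19 in WT and 5.97 to 6.34 in Tsc1-/-, and that of 4 NK cell markers 5.28 to 5.43 and 5.08 to 5.50. For 6 granulocyte markers the mean level was 7.17 to 8.09 in WT and 6.04 to 8.60 in Tsc1-/-, and for 3 erythroid markers 7.44 to 8.0 and 6.83 to 8.69, with Tsc1-/- replicate 2, the lowest array of Cd27 and Ltb, at the top of both.

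The mitosis genes moved with the genotype as well, with a mean level of 7.76 to 8.48 in WT and 8.67 to 9.02 in Tsc1-/- over 8 genes, of which 5 passed the threshold as higher. WT replicates 3 and 4, which lay nearest to the Tsc1-/- arrays for Cd27, were also the WT arrays nearest to them in mitosis level. For Tnf this was not so: WT replicate 3 was the highest WT array (6.64) and WT replicate 4 the lowest (6.43). With the mitosis level as a covariate the difference was -0.19 (SE 0.17, 95% interval -0.56 to 0.18) for Cd27 and 0.34 (SE 0.23, 95% interval -0.17 to 0.85) for Tnf. The mitosis level separates the genotypes completely, so its part in these differences and that of the genotype cannot be told apart.

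**Figure D4:**
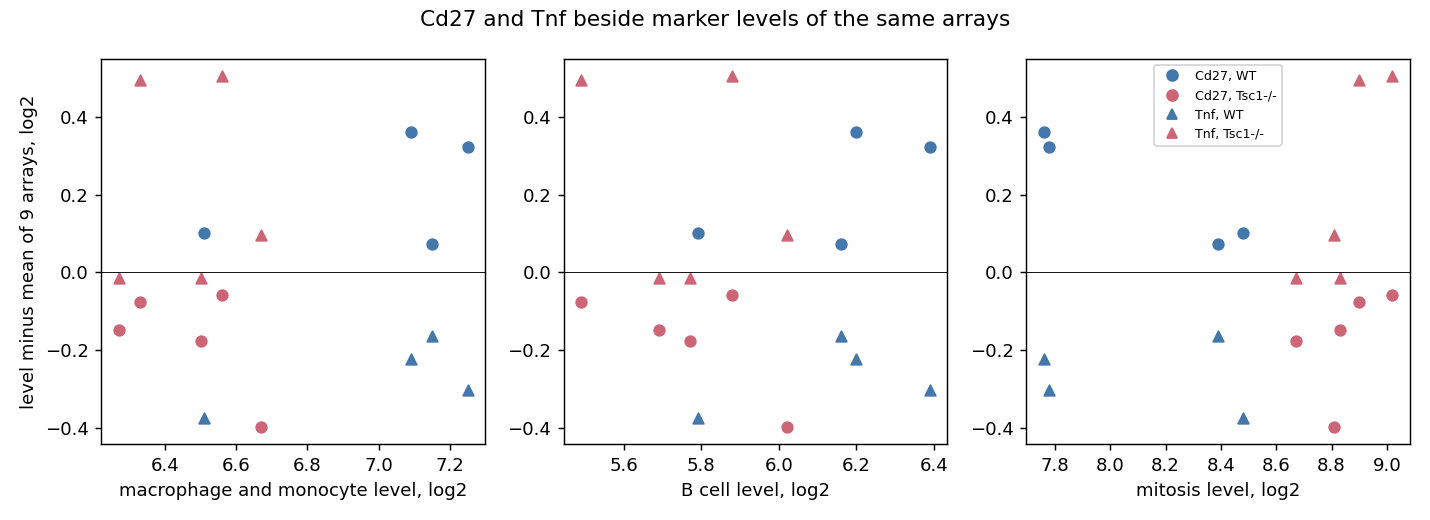
Level of Cd27 (circles) and Tnf (triangles) minus the gene's mean over 9 arrays (y axis, log2) against the mean level of macrophage and monocyte markers, B cell markers and mitosis genes on the same array (x axes, log2), WT in blue and Tsc1-/- in red. WT replicate 4 has a macrophage level of 6.51, inside the Tsc1-/- range of 6.27 to 6.67, and mitosis levels do not overlap between the genotypes.

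The direction of Cd27 and Tnf was the same in each of 20 other settings, and the size of their differences ranged from -0.43 to -0.19 and from 0.34 to 0.56. Both genes have 1 probe set and no overlap between the genotypes, so many settings could not change the direction. These were each array left out, array weights, the replicate block, and the settings for probe sets, dim genes and the variance model. Only quantile normalization, median centring and the macrophage, B cell or mitosis level as a covariate could have changed it. Cd27 passed the threshold in 3 of them: with dim genes left out (adjusted p = 0.0302), with a variance trend and robust estimation (adjusted p = 0.0179) and with array weights (adjusted p = 0.0415, all limma). Tnf passed in the first 2 of these (adjusted p = 0.0380 and 0.0417, limma). More genes passed in these 3 settings than the 166 higher and 53 lower of 17097 as reported. With dim genes left out, 543 were higher and 151 lower of 8799 genes. With the variance trend the counts were 509 and 171 of 17097, and with array weights 340 and 125 of 17097. Dim genes were those with a mean below the median level over genes in both genotypes. This filter used the group labels, so it was not independent of the comparison. With any 1 array left out, neither passed, and the adjusted p ranged from 0.0579 to 0.196 for Cd27 and from 0.0774 to 0.184 for Tnf (limma).

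**Figure D5:**
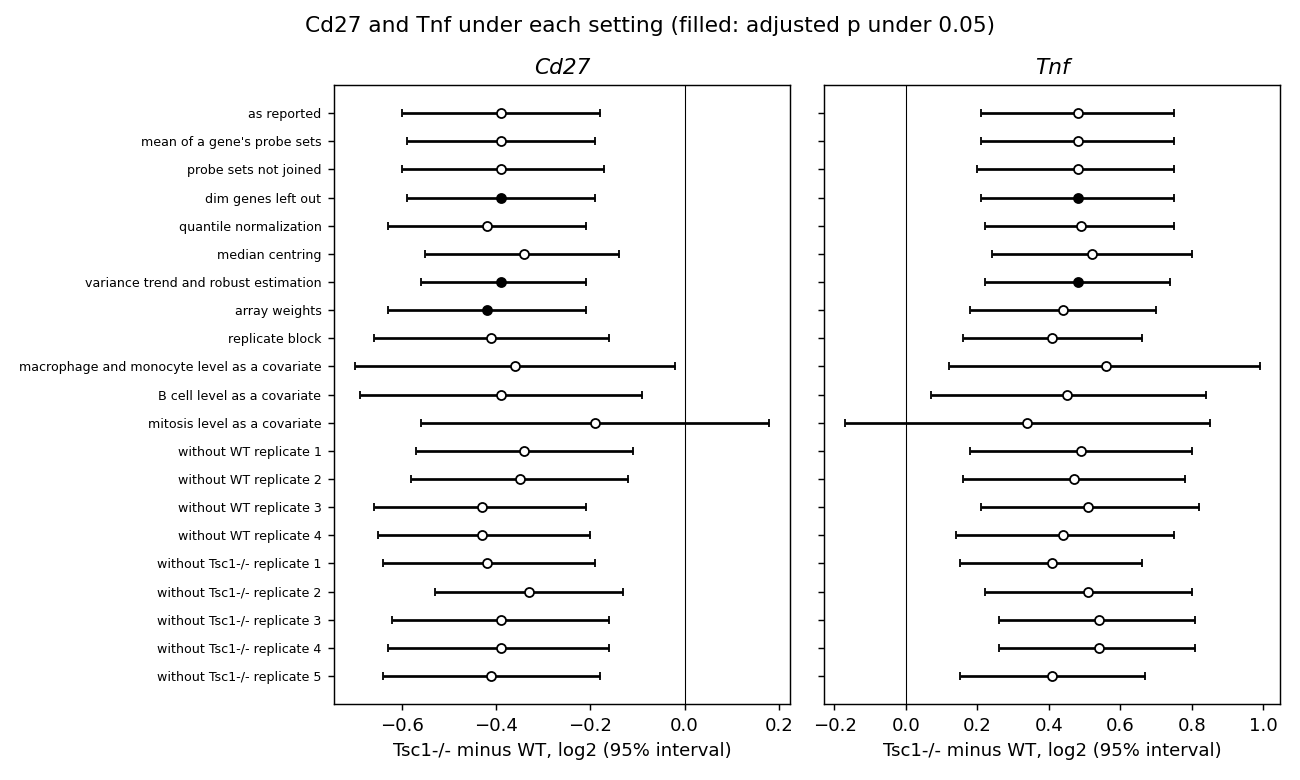
Difference between Tsc1-/- and WT (x axis, log2 scale, with 95% intervals) of Cd27 and Tnf as reported and under each of 20 other settings (y axis). Filled points have an adjusted p under 0.05 over the genes tested. With the mitosis level as a covariate, the intervals of both genes include 0.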

How the data were processed

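Expression was deposited by the authors as log2 values, 1 per probe set and array, for 9 arrays. The submitters' processing notes name RMA and Partek 6.5. RMA equalises the intensity distribution of the arrays, which hides a shift common to most genes. The labels' protocols give 12 ng of input RNA per sample. The platform annotation tied 28898 of 45037 probe sets to 1 gene and 551 to several, and left 15588 without a name here. Entrez identifiers linked 28689 probe sets to current symbols in RefSeq's table for GRCm38.p6, which also gave neighbouring genes and promoters.

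For the genotype, lmFit and then eBayes (limma 3.58.1, R 4.3.3) were run two-sided on all 17097 genes without a filter on level, adjusted by Benjamini-Hochberg. The same fit was run on simulated data in the same layout, with noise drawn independently for each gene. That run did not cover variation shared between genes. Single values also got an exact permutation test over all ways to divide the arrays into 4 and 5. Named beside the members were, from each pathway list, all genes past the threshold or, where none passed, the 2 with the smallest p, and the 3 genes closest to each of the 2 members with the largest t statistic. Ctla4, Prkcq, Adam17 and Spic, and the pathway genes without overlap, were named after their values were seen. The members and lists were chosen with earlier results of these data known. Same-numbered WT and Tsc1-/- arrays did not deviate together (correlations of -0.10, 0.09, -0.07 and 0.02), so no pairing was used. The number of arrays limits the precision. Another 12 pathway genes lacked a named probe set. Alternatives covered the choice of probe sets, dim genes, normalization, variance model, array weights, marker levels and each array left out. Figures were drawn in Python 3.11.15.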

Additional observations from a re-analysis of the deposited data

Results flagged for a closer look

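Of 32 groups (16 probe sets in WT and in Tsc1-/-), 1 held an array far from the others, where chance alone gives about 1 in 20. At the dimmer probe set of Tnfrsf1b, WT replicate 4 read 7.15 and the nearest WT array 7.41, a gap of 0.834 of the group's range, just above the limit of 0.829 for 4 arrays. At the brighter probe set of Tnfrsf1b the same array read 9.35, inside the range of the other WT arrays.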

How the results depend on the processing

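Of 199 values of single members under other settings, 191 kept their direction and their side of the threshold, 5 passed it (Cd27 in 3 settings, Tnf in 2) and 3 changed direction: Tnfrsf4 (0.01) and Tnfrsf9 (-0.32) with the mitosis level as a covariate, and Tnfrsf18 (0.0016) with the macrophage level. The cause was not tested. Lta was not tested with dim genes left out, being dim itself. The count of members called was 1 higher and 1 lower with dim genes left out and with a variance trend and robust estimation, 0 higher and 1 lower with array weights, and 0 and 0 in all other settings, each single array left out included. In the settings where a member was called, more genes were called than as reported. Of 17097 genes, 166 were higher and 53 lower as reported. Of 45037 probe sets not joined to genes, 69 were higher and 39 lower. With dim genes left out, 543 were higher and 151 lower of the 8799 genes kept. Of 17097 genes, 58 and 32 were called after quantile normalization and 381 and 57 after median centring. The counts were 509 and 171 with a variance trend and 340 and 125 with array weights, again of 17097. With the macrophage, B cell or mitosis level as a covariate, limma called 0 and 0 (1578, 1682 and 1182 genes at an unadjusted p under 0.05). Same-numbered arrays did not deviate together, which does not exclude that the samples were paired. With the replicate number as a block limma called 0 and 0 (2354 at an unadjusted p under 0.05), and Cd27 differed by -0.41 and Tnf by 0.41. Leaving out 1 array gave 1 to 297 higher and 1 to 159 lower genes. The counts were 1 and 1 without WT replicate 1 or Tsc1-/- replicate 5, 2 and 1 without WT replicate 2, 70 and 13 without WT replicate 3, 297 and 159 without WT replicate 4, and 6 and 2, 41 and 12, and 21 and 9 without Tsc1-/- replicates 2, 3 and 4.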
